A study of Mus musculus with 12 samples.

Results

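Arctigenin (ATG) treatment was compared with vehicle in glomeruli of diabetic mice by mRNA sequencing. The comparison takes every sample whose label reads DM_ATG, 3 mice, against every sample whose label reads DM_DMSO, 3 mice, which is 6 of the 12 mice sequenced. All of them were male eNOS-/- mice on a C57BL/6J background, which lack endothelial nitric oxide synthase, and the diabetic mice had received streptozotocin (STZ) at 50 mg/kg on 5 days at 8 weeks of age. ATG at 40 mg/kg or the vehicle, 5% DMSO, was gavaged daily from 10 weeks after induction for 8 weeks, and the mice were killed 18 weeks after induction, at 26 weeks of age. The other 6 mice, nondiabetic and given ATG or vehicle, enter only where they are named, and every group lacks eNOS. Within the labels of the diabetic mice, a shared prefix separates the ATG group from the vehicle group completely, so anything common to a prefix cannot be told apart from the treatment.

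ATG is a lignan of burdock fruit that has been described as anti-inflammatory. A glomerulus is a tuft of capillaries held by mesangial cells and wrapped by podocytes, whose actin-rich foot processes and slit diaphragms carry the filtration barrier. In diabetes, podocytes lose this architecture, matrix accumulates and macrophages enter the tuft. The transcription factor NF-kB, whose subunits include the products of Rela, Relb, Nfkb1 and Nfkb2, drives many of the adhesion molecules, chemokines and cytokines that recruit leukocytes.

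The deposited values are log2 values of 14096 genes, which are not divided by gene length. Below 2000 on the linear scale, between 83.4% and 84.1% of values were whole multiples of 1 step per library, and the reads given here were recovered with that step. Between 25.8 and 29.8 M (mega) reads fell on these genes in vehicle-treated and between 27.6 and 28.9 M in ATG-treated diabetic mice. The labelled tissue was checked on its markers. Nphs1, which encodes the slit diaphragm protein nephrin, was read between 53769 and 93924 times per mouse, and Pdgfrb, a mesangial receptor, between 2868 and 3875 times. The labels also describe sorting of digested glomerular cells by a fluorescent protein, which the study's methods leave out, and whether sorted cells or whole glomeruli were sequenced is not settled here. Tubule transcripts were present too, and the 50 listed proximal tubule genes held between 0.203% and 0.469% of all values on the linear scale in vehicle-treated and between 0.300% and 0.579% in ATG-treated mice. Because the RNA of many cells was sequenced together, fewer cells of a type and less RNA per cell cannot be told apart anywhere in these data.

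ATG was accompanied by small differences in diabetic glomeruli. The higher genes with the lowest p were Skil, a repressor of SMAD signalling, Ackr2, a receptor that scavenges inflammatory chemokines, and Coro2a, a coronin, each between 1.63-fold and 1.77-fold. The lower genes with the lowest p included Nfkb2, by 24.9%, the leukocyte integrin Itgb2, by 36.3%, and Abra, an actin-binding protein, by 53.1%. Leukocyte and macrophage markers were mostly lower as well, with a median log2 difference of -0.48 that became -0.23 without the second ATG-treated mouse, while podocyte and endothelial genes had medians near 0. Proximal tubule genes were above 0 in 49 of 50, with a median of 0.38 that became 0.05 without the third vehicle-treated mouse. The median of 8 erythrocyte genes was -0.91, and ran from -1.56 to -0.49 with 1 mouse left out. None of the single-gene differences passed correction for the number of genes tested.

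With limma on all 12 mice and Benjamini-Hochberg adjustment over the 14096 genes, 0 genes had an adjusted p under 0.05, and limma-voom on the recovered reads also gave 0. The exception was a fit that weights each library by its spread, in which the first vehicle-treated mouse counted most among the diabetic mice, and which called 1563 genes with weights by restricted maximum likelihood that did not converge and 114 with weights estimated gene by gene. An unadjusted p under 0.05 was reached by 636 genes, or 4.51%, against 704.8 expected if no gene differed. Of these, 396 were lower (2.81% of all genes) and 240 higher (1.7%). A scaling by median ratios, which moved the median of all genes by only 0.020, changed that division to 300 lower and 317 higher, so the excess of lower genes depends on the scale. Fits that left out the first, the second or the third vehicle-treated mouse gave 203, 361 and 648 lower and 144, 457 and 479 higher genes, and those without the first, the second or the third ATG-treated mouse 311, 272 and 368 lower and 204, 156 and 197 higher, which are the counts over all genes for every list count with a mouse left out. The groups did not overlap, every ATG-treated mouse being on the same side of every vehicle-treated mouse, in 891 genes that were lower (6.32%) and 543 that were higher (3.85%), and with median ratios in 665 and 751. With 3 mice against 3, an exact permutation test of a single gene cannot give a p under 0.1.

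The differences themselves were narrow. From the 1st to the 99th percentile of genes the log2 fold change ran from -0.48 to 0.50, and its median size was 0.080. Only 14 genes differed by more than 1 log2 unit, 6 higher and 8 lower, and 268 genes (1.90%) by more than 0.5. The one gene beyond 1.5 was Erdr1, an erythroid differentiation regulator listed on chromosome X. Its log2 values were 10.66, 10.78 and 10.29 in the vehicle-treated and 6.97, 10.42 and 8.97 in the ATG-treated mice, so the groups overlapped and the difference of -1.79 had a standard error (SE) of 0.64.

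**Figure D1:**
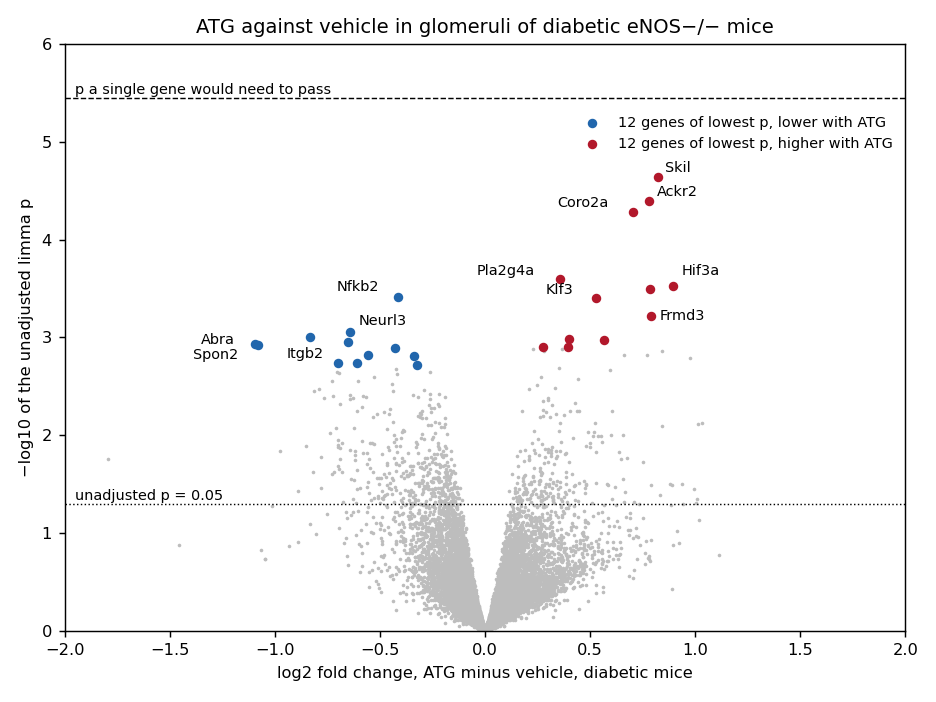
Difference between ATG- and vehicle-treated diabetic mice for each of 14096 genes, with the log2 fold change on the x axis and −log10 of the unadjusted limma p on the y axis. Coloured points are the 12 genes of lowest p in each direction, and all of them lie below the dashed line that a single gene would need to reach to pass the adjustment.

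The 12 genes of lowest p among those that were higher with ATG had log2 differences between 0.28 and 0.89, or 1.21-fold to 1.86-fold, and in all 12 the groups were apart. Skil (chromosome 3, 31095058 to 31122923 in GRCm38) encodes SnoN, which holds SMAD proteins in an inactive complex. Its log2 values were 10.55, 10.91 and 10.83 with vehicle and 11.70, 11.62 and 11.44 with ATG, so the lowest ATG-treated mouse stood above the highest control. The difference was 0.82 ± 0.12 (SE), with an adjusted p of 0.248 by limma. Ackr2 (chromosome 9, 121898355 to 121911075) encodes an atypical receptor that takes up CC chemokines without classical signalling. It read 8.57, 8.35 and 8.44 with vehicle against 9.23, 9.25 and 9.22 with ATG, a difference of 0.78 ± 0.12 (SE) with the same adjusted p of 0.248. The 3 treated mice were nearly identical for this gene.

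Coro2a (chromosome 4, 46536937 to 46601929) encodes a coronin that binds actin filaments. Its log2 values were 10.18, 10.41 and 10.47 with vehicle and 11.05, 11.18 and 10.93 with ATG, and the difference was 0.70 ± 0.11 (SE, adjusted p = 0.248 by limma). Pla2g4a encodes the cytosolic phospholipase that releases arachidonic acid for prostaglandin synthesis. It had one of the tightest separations, with 10.37, 10.20 and 10.16 against 10.59, 10.59 and 10.61, and a difference of only 0.35 ± 0.067 (SE, adjusted p = 0.690). Hif3a, a subunit of the hypoxia-inducible factors, had between 74 and 185 reads and was higher by 0.89 ± 0.17. Mcf2l, a guanine nucleotide exchange factor, stood at 10.66, 11.09 and 11.11 with vehicle and at 11.95, 11.66 and 11.61 with ATG.

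Klf3 and Klf10, Krüppel-like transcription factors, were higher by 0.53 and 0.57. Frmd3, a protein of the membrane skeleton, was higher by 0.79, and Shroom4, which organises actin, by 0.40. Dab2ip, a Ras GTPase-activating protein, and Rapgef2, which activates the small GTPase Rap1, were higher by 0.28 and 0.39. Their adjusted p values lay between 0.690 and 0.804.

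The 12 genes of lowest p among those lower with ATG had log2 differences of 0.32 to 1.09 in size, adjusted p values from 0.690 to 0.870, and groups that did not overlap in all 12. Nfkb2 (chromosome 19, 46300994 to 46312400) encodes p100, the precursor of the p52 subunit of the noncanonical NF-kB pathway. Its log2 values were 10.77, 10.56 and 10.66 with vehicle and 10.20, 10.27 and 10.28 with ATG, and the difference was -0.41 ± 0.082 (SE, adjusted p = 0.690 by limma). The ATG-treated mice lay close together and below every control. Neurl3, an E3 ubiquitin ligase induced in inflammation, read 9.68, 9.57 and 9.70 against 9.06, 8.91 and 9.04. Itgb2 (chromosome 10, 77530329 to 77565708), the common beta chain of the leukocyte integrins, read 9.38, 9.07 and 9.11 against 8.74, 8.28 and 8.59. The differences were -0.64 ± 0.14 and -0.65 ± 0.15 (SE), both with an adjusted p of 0.804.

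Abra and Spon2 differed most in size. Abra, whose product promotes actin-dependent transcription, stood at 8.64, 8.92 and 8.54 with vehicle and at 7.54, 7.75 and 7.53 with ATG. The gap between the groups was larger than the range within either, and the difference was -1.09 ± 0.25 (SE, adjusted p = 0.804 by limma). Spon2, a secreted matrix protein that can bind integrins, was at 9.07, 9.45 and 9.50 against 8.49, 8.48 and 7.81, where one treated mouse was lower than the other 2. Akap12, a scaffold for protein kinase A, was at 12.45, 12.43 and 12.61 against 12.01, 11.57 and 11.81, lower by 38.3%. Arrdc4, an arrestin-related gene induced by glucose, was at 9.62, 9.59 and 9.36 against 9.08, 9.04 and 9.16.

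The others in this group were 6030419C18Rik (-0.83), the chromatin protein Phf21b (-0.56), the microtubule-associated ubiquitin ligase Mid1 (-0.34), the splicing factor Rbfox1 (-0.61) and the membrane-bending protein Bin1 (-0.32). Mid1 is known for marking the catalytic subunit of protein phosphatase 2A (PP2A) for degradation.

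**Figure D2:**
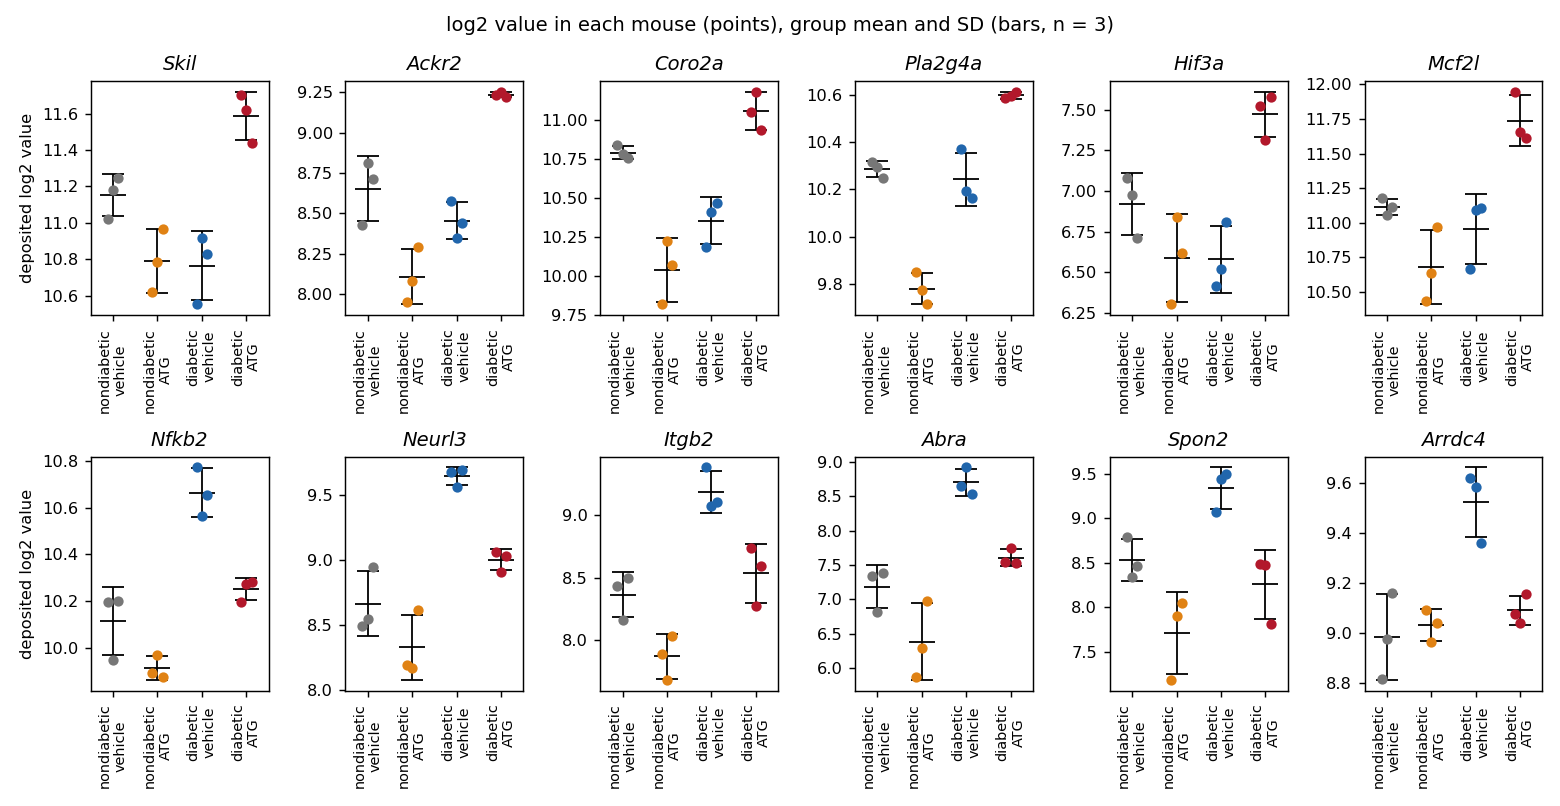
Log2 value in each of the 12 mice for 6 genes that were higher (Skil, Ackr2, Coro2a, Pla2g4a, Hif3a, Mcf2l) and 6 that were lower (Nfkb2, Neurl3, Itgb2, Abra, Spon2, Arrdc4) with ATG in diabetic mice, each panel with its own y axis that does not start at 0. Points are mice and bars the group mean and SD (n = 3), and in each panel the ATG-treated diabetic mice lie wholly to one side of the vehicle-treated diabetic mice.

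Genes of leukocytes and macrophages were the group with the most lower members. Of the 66 markers written down 52 are in the table, and 23 of these were lower at an unadjusted p under 0.05, or 44.2% against 2.81% of all genes, none was higher, and 48 had a difference below 0. The groups were apart in 20 that were lower and 1 that was higher, against 6.32% and 3.85% of all genes, and none of the 52 passed the adjusted threshold. Among the members were Aif1, a macrophage calcium-binding protein (-0.85), Coro1a, the leukocyte coronin (-0.70), Spi1, the master transcription factor of myeloid cells (-0.70), and Tyrobp, an adaptor of activating receptors (-0.51). The pan-leukocyte gene Ptprc, which encodes CD45, was at 9.97, 9.73 and 9.65 with vehicle and at 9.59, 9.05 and 9.63 with ATG, a difference of -0.36. Cd68, of macrophage lysosomes, was lower by 0.68 with overlapping groups.

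Some defining macrophage markers had p values above 0.05. Adgre1, which encodes F4/80, was at 8.63, 8.72 and 8.11 with vehicle and at 8.70, 7.36 and 7.91 with ATG, so the highest treated mouse lay within the controls and the difference was -0.50 ± 0.34 (SE). Itgam, which encodes CD11b, differed by -0.30 ± 0.21 and overlapped as well. The mean log2 value of the whole list was 8.71, 8.50 and 8.34 in the vehicle-treated and 8.40, 7.83 and 8.16 in the ATG-treated mice, with the second ATG-treated mouse lowest and the first within the control range. Without that second mouse, 7 of the 52 were lower at an unadjusted p under 0.05, all 7 among the 23, and the median was -0.23. Without the first vehicle-treated mouse 9 were lower, all 9 among the 23, and 2 were higher. Without the second vehicle-treated mouse 15 were lower, 13 of them among the 23, and without the first ATG-treated mouse 31, of which 22 were among the 23. As a share of all values on the linear scale, the list held between 0.0967% and 0.121% with vehicle and between 0.0745% and 0.0983% with ATG.

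All 24 listed genes of antigen presentation had a difference below 0, as did 7300 of all 14096 genes, with a median of -0.24, and 4 were lower at an unadjusted p under 0.05 (16.7%, against 2.81% of all genes). The mean of the list was 11.74, 11.68 and 11.50 with vehicle and 11.37, 11.14 and 11.51 with ATG, so the groups overlapped. H2-Aa, a chain of MHC class II, was at 11.57, 11.80 and 11.01 with vehicle and at 11.22, 10.33 and 10.75 with ATG, so the groups overlapped despite a difference of -0.69. H2-Ab1 (-0.64) and Cd74, the class II invariant chain (-0.63), overlapped in the same way, and only H2-DMb1 (-0.29) had its groups apart. The count of 4 became 0 without the first vehicle-treated or the second ATG-treated mouse, 1 without the second and 7 without the third vehicle-treated mouse. The median of -0.24 ran from -0.37 to -0.17 with 1 mouse left out.

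Of 31 NF-kB subunits and inhibitors, 6 were lower at an unadjusted p under 0.05 (19.4%, against 2.81% of all genes) and none higher, and their median was -0.06. It was -0.01 with 17 of 31 below 0 without the first vehicle-treated mouse and -0.10 without the third, and the number lower was 4 without the first vehicle-treated or any 1 ATG-treated mouse and with median-ratio scaling. None of the 31 is on the leukocyte list. After Nfkb2 came Relb, the partner of p52, which was at 9.80, 9.21 and 9.64 with vehicle and at 9.14, 8.94 and 9.18 with ATG (-0.46 ± 0.14 SE). The groups were only narrowly apart, because the second vehicle-treated mouse was close to the treated ones. Traf3, an adaptor that restrains the noncanonical pathway, was lower by 0.24, and Rela, the p65 subunit, was at 11.68, 11.65 and 11.53 against 11.50, 11.46 and 11.50. The difference in Rela was small, at -0.14 ± 0.056.

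Of 32 listed NF-kB target genes, 6 were lower (18.8%, against 2.81% of all genes) and none higher, with a median of -0.15. Without the first vehicle-treated mouse 3 were lower and the median was -0.06, without the second ATG-treated mouse 3 and -0.11, without the third vehicle-treated mouse 10 and -0.18, and without the first ATG-treated mouse 8 and -0.25. Nfkb2 and Relb themselves were among the 6. Sele, the endothelial selectin that slows rolling leukocytes, was at 9.31, 8.60 and 9.11 with vehicle and at 8.28, 7.50 and 8.31 with ATG (-0.98 ± 0.34 SE). Cx3cl1, the membrane-bound chemokine of endothelium, was at 12.88, 12.71 and 12.77 against 12.64, 12.27 and 12.49, lower by 19.8%. Ptgs2, which encodes cyclooxygenase-2, was lower by 0.50 on 66 to 111 reads, and Il1b by 0.61 with overlapping groups.

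Of 40 chemokines, cytokines and their receptors, 9 were lower (22.5%, against 2.81% of all genes) and 1 higher (2.5%, against 1.7%) at an unadjusted p under 0.05. Without the first vehicle-treated mouse 4 were lower, and without the second ATG-treated mouse 5. Csf2rb, the shared receptor chain for GM-CSF and IL-3, was lower by 38.2%, Il10ra, a receptor chain for interleukin 10, by 0.81 log2 units and Cxcr4, the receptor for CXCL12, by 0.64 log2 units, each with its groups apart. Il33, an alarmin of stromal and endothelial nuclei, was the exception. It was at 7.53, 6.44 and 6.51 with vehicle and at 8.13, 7.39 and 8.06 with ATG, higher by 1.03 ± 0.32 (SE), and the groups overlapped because one vehicle-treated mouse stood above the lowest treated mouse.

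The sites of 3 of these genes are shown because Nfkb2 and Neurl3 are the 2 lower genes with the lowest p, and Nfkbia is the classical NF-kB-induced inhibitor. Nfkbia itself did not reach an unadjusted p under 0.05 by limma. The letters searched, GGGA, any base and TTTCC on either strand, are one spelling of the kappaB motif. Promoter windows from RefSeq (GRCm38.p6), from 250 bases before to 50 after an annotated start, were found for 11151 of the listed genes, and 52 of them (0.466%) hold these letters. Capitals mark the match.
Nfkb2: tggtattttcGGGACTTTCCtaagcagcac
Neurl3: gaggtcatggGGAAAGTCCCggatatcgtc
Nfkbia: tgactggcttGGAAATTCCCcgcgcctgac

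The Nfkb2 sequence is at chr19:46305695-46305724 on the plus strand, and its capitals begin 225 bases before one annotated start and 10 bases after another. The Neurl3 sequence is at chr1:36273516-36273545 on the minus strand, with its capitals from 110 bases before the start. The Nfkbia sequence is at chr12:55492657-55492686 on the minus strand, with its capitals from 29 bases before. In both of the latter the letters are read on the other strand. Of the 12 lower genes 7 have a window and 2 hold the letters, and of the 12 higher genes 10 have a window and 0 hold them. Among the NF-kB subunits and inhibitors 3 of 25 hold them, Nfkb2, Nfkbia and Cyld, whose sequence is not shown. Cyld did not reach an unadjusted p under 0.05 by limma either. This was 1 of 5 spellings tried after the genes were known, and the loosest, GGG, 5 bases of any kind and CC, is in 71.0% of all windows, 5 of the 7 and 8 of the 10. A match of letters is a description and does not mark a bound site.

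Of 46 integrins and vascular adhesion molecules, 6 were lower (13%, against 2.81% of all genes) and 1 was higher (2.17%, against 1.7%), with a median of -0.06. Without the first vehicle-treated mouse 4 were lower, without the second ATG-treated mouse 3. The median ran from -0.11 to -0.03 with 1 mouse left out. In the fit on all mice, 3 of the 6 lower, Itgb2, Itgal and Itgax, are on the leukocyte list. Cd44, a hyaluronan receptor, was at 8.80, 8.64 and 8.18 with vehicle and at 7.95, 7.53 and 7.96 with ATG (-0.73 ± 0.19 SE). Itgb7, an integrin chain of lymphocytes, was at 8.26, 8.35 and 8.39 against 7.96, 8.03 and 8.21, which is apart, but its difference of -0.27 ± 0.16 had an unadjusted p of 0.132.

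Of 70 regulators of the actin cytoskeleton, 9 were lower (12.9%, against 2.81% of all genes) and 2 higher (2.86%, against 1.7%), with a median of -0.01. Without the second ATG-treated mouse 5 were lower. In the fit on all mice, 2 of the 9, Coro1a and Vav1, are on the leukocyte list. Coro1a and Coro2a, both coronins, differed in opposite directions (-0.70 and 0.70). The WASP family, its regulators and the Arp2/3 complex, which nucleates branched actin, had 33 listed genes. Of these, 3 were lower (9.09%, against 2.81% of all genes) and none was higher. With 1 mouse left out the number lower was 3 to 6, the 6 without the third vehicle-treated mouse. The 3 were Was, the haematopoietic member, at 7.24, 7.24 and 7.17 against 6.54, 6.72 and 6.80, Nckap1l, its haematopoietic WAVE-complex relative (-0.45), and Wash1, the endosomal member, which is widely expressed. Wash1 was at 10.58, 10.65 and 10.61 with vehicle and at 10.44, 10.49 and 10.35 with ATG, a difference of -0.19 ± 0.057 (SE) on at least 1267 reads in each mouse. The mean of the WASP list was apart between the groups, lower with ATG, by -0.05 log2 units. Among the 40 lists, only that of the circadian clock also had its mean apart. With 3 mice against 3, an exact permutation test of a list mean cannot give a p under 0.1.

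Of 55 focal adhesion genes, 3 were higher (5.45%, against 1.7% of all genes) and none lower (against 2.81%), and leaving out 1 mouse left 2 or 3 higher and at most 1 lower. Among the 3 were Rapgef2 and Tns1, a tensin that links integrins to actin (0.40). Zyx, which encodes the focal adhesion protein zyxin, was at 11.35, 11.17 and 11.21 against 11.10, 10.96 and 10.96, with a difference of -0.24 and an unadjusted p of 0.055. Rapgef5, an exchange factor for Rap GTPases, was at 11.65, 11.32 and 12.05 with vehicle and at 11.48, 11.34 and 11.59 with ATG, and the groups overlapped, with a difference of -0.20 ± 0.18 (SE). Dbn1, an actin-binding protein of podocyte processes, was at 10.03, 10.70 and 9.85 with vehicle and at 10.41, 10.28 and 10.34 with ATG. The treated mice fell inside the range of the controls and the difference of 0.15 ± 0.24 (SE) covers -0.37 to 0.68.

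PP2A, a serine/threonine phosphatase built from a scaffold, a catalytic and a regulatory subunit, was among the most precisely measured groups. Ppp2r1a, the main scaffold, was at 12.81, 12.82 and 12.81 with vehicle and at 12.83, 12.81 and 12.80 with ATG, and its difference lay between -0.11 and 0.12 at 95% confidence. The catalytic subunits Ppp2ca and Ppp2cb differed by 0.03 and -0.06, and the second scaffold Ppp2r1b by -0.15. Of 29 subunits and modulators, 27 (93.1%) had an interval that lay wholly within 0.5 log2 units of 0. The one with an unadjusted p under 0.05 was Ppp2r2d, a regulatory subunit, which was higher by 0.16 (3.45% of the list, against 1.7% of all genes). None was higher without the first or the second ATG-treated mouse, in the 6 diabetic mice alone or with the proximal tubule mean as a covariate, and 2 were without the second or the third vehicle-treated mouse. These are mRNA levels, and phosphatase activity was not measured here.

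**Figure D3:**
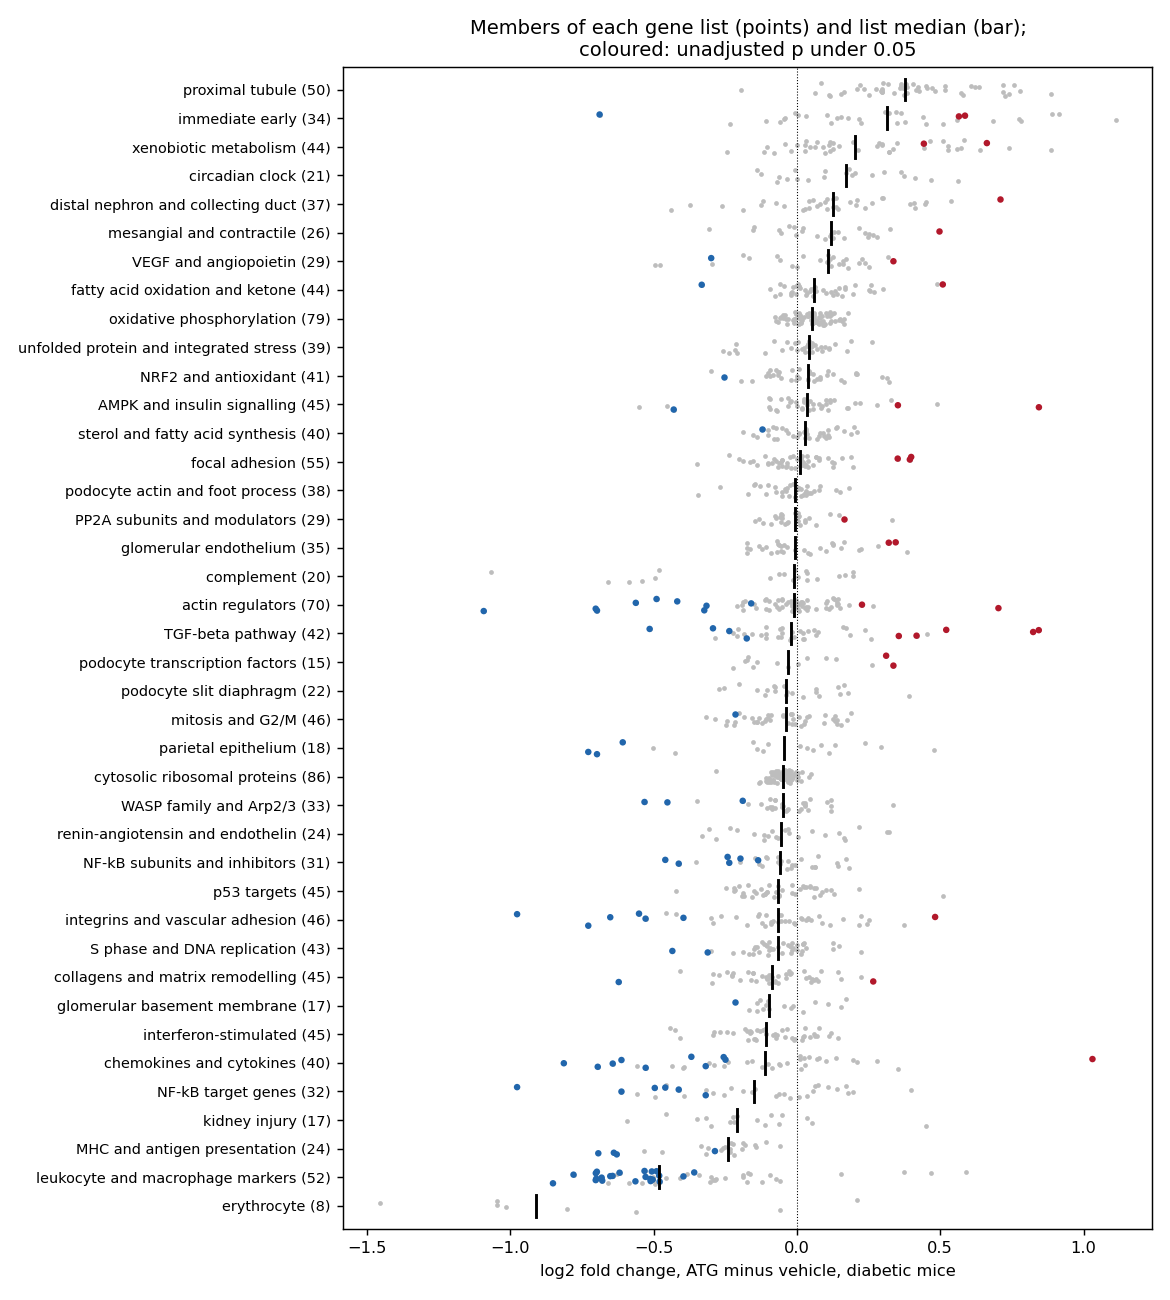
Log2 fold change, ATG minus vehicle in diabetic mice, of each member (points) of 40 gene lists, with the number of listed members in parentheses and a bar at the median. Blue and red points have an unadjusted p under 0.05. The leukocyte list has the most blue members, 23, with a median of -0.48 (7 and -0.23 without the second ATG-treated mouse). The erythrocyte list has the lowest median, -0.91.

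The genes that define podocytes were near 0 as groups, but with wide intervals. Of 22 slit diaphragm genes, none had an unadjusted p under 0.05 in either direction, and the median was -0.04, which became 0.07 without the third and -0.16 without the second vehicle-treated mouse. Nphs1 was at 16.06, 15.81 and 16.52 with vehicle and at 15.89, 16.02 and 16.06 with ATG. The third vehicle-treated mouse was highest and the treated mice lay within the control range. Only 7 of the 22 genes had an interval within 0.5 log2 units of 0, although Nphs1 was read at least 53769 times in each mouse. Wt1, the podocyte transcription factor, differed by 0.10 with an interval from -0.53 to 0.74.

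Of 15 podocyte transcription factors, 2 were higher (13.3%, against 1.7% of all genes), Hey1 (0.34) and Zhx3 (0.31), and none lower. Only 1 was higher without the first or the third mouse of either group. Of 38 genes of podocyte actin and foot processes, none differed at an unadjusted p under 0.05. Of 18 parietal epithelium genes, 3 were lower, Cd44, Akap12 and Rbfox1 (16.7%, against 2.81% of all genes), and none higher, but 9 were above 0 and the median was -0.04, from -0.26 without the third to 0.10 without the second vehicle-treated mouse. Among 17 basement membrane genes, only Lamc1, the laminin gamma 1 chain, was lower (5.88%, against 2.81% of all genes), by 0.22, and none was in 4 of the 6 fits that left out 1 mouse. Of 35 endothelial genes, the 2 transcription factors Sox7 and Sox18 were higher (5.71%, against 1.7%), by 0.34 and 0.32. The count was 0 without the first vehicle-treated mouse, 1 without the second or the third ATG-treated mouse and 4 in a fit on the 6 diabetic mice alone. Ehd3, a gene of glomerular endothelium, was at 15.09, 15.41 and 15.35 against 15.69, 15.73 and 15.60, higher by 0.38 with an unadjusted p of 0.056. Of 26 mesangial and contractile genes, only Pdgfra, a receptor of fibroblast-like cells, was higher (0.50), or 3.85% against 1.7%. None was without the second mouse of either group, and 3 were without the third vehicle-treated mouse. Itga8, the mesangial integrin chain, differed by 0.25 ± 0.16 (SE).

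Proximal tubule genes were above 0 in 49 of 50 listed members with a median of 0.38, yet none had an unadjusted p under 0.05. Without the third vehicle-treated mouse the median was 0.05 with 21 of 50 below 0, and without the second ATG-treated mouse it was 0.18. It was 0.60 with 7 higher at an unadjusted p under 0.05 without the second vehicle-treated mouse, and 0.64 with 6 higher without the third ATG-treated mouse. The mean of the 50 genes was 10.22, 10.45 and 9.30 in the vehicle-treated and 10.45, 10.82 and 9.91 in the ATG-treated mice, so the groups overlapped and the third vehicle-treated mouse was lowest. Lrp2, which encodes the uptake receptor megalin, differed by 0.52 ± 0.35 (SE), and Slc12a3, the thiazide-sensitive transporter of the distal tubule, by 0.54 ± 0.38. The 37 genes of the distal nephron and collecting duct had a median of 0.12 with 8 below 0, which became -0.24 with 30 below 0 without the third vehicle-treated mouse and 0.43 with 11 higher without the second. With the proximal tubule mean as a covariate, 459 of all genes were lower at an unadjusted p under 0.05 in place of 396, and 354 higher in place of 240. In that fit 18 of the 52 leukocyte genes were lower in place of 23, 2 of the 24 antigen presentation genes in place of 4, and 2 of the 42 genes of the TGF-beta pathway in place of 4. In other lists the count rose, among them the NF-kB target genes, with 8 of 32 lower in place of 6, and the WASP list, with 4 of 33 in place of 3. That covariate moved the median of the immediate early genes from 0.32 to 0.02, of 44 xenobiotic metabolism genes from 0.20 to -0.01 and of the oxidative phosphorylation genes from 0.05 to -0.06.

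**Figure D4:**
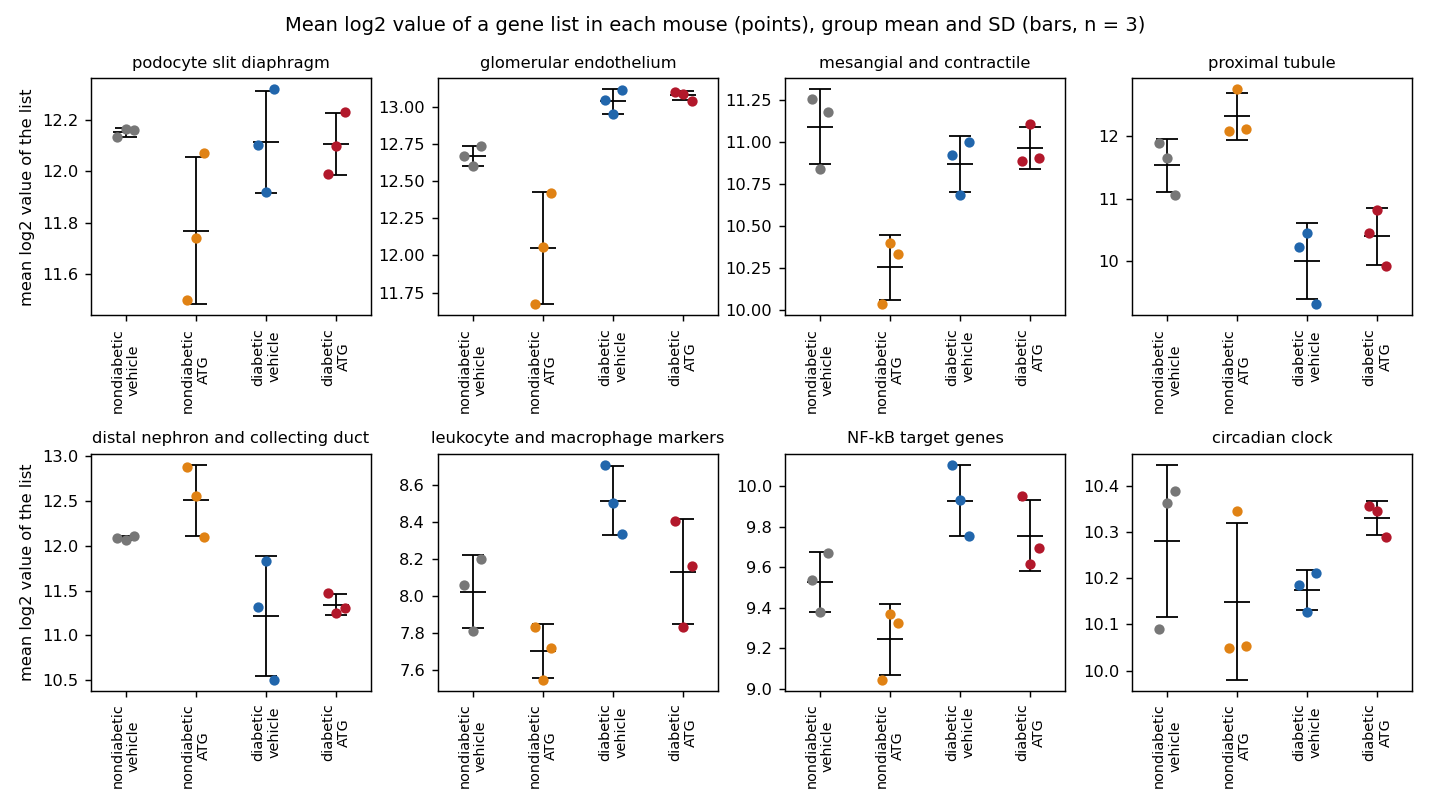
Mean log2 value of 8 gene lists in each of the 12 mice, with group mean and SD (bars, n = 3) and a separate y axis per panel that does not start at 0. For the leukocyte and NF-kB target lists the ATG-treated diabetic mice overlap the vehicle-treated ones, and the proximal tubule panel shows one vehicle-treated diabetic mouse at 9.30, below the other 2.

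The transforming growth factor beta (TGF-beta) pathway had the highest number of members higher at an unadjusted p under 0.05 among the lists, though not the highest share, with 5 of 42 (11.9% against 1.7% of all genes), with 4 lower (9.52% against 2.81%) and a median of -0.02. The number lower was 1 without the first vehicle-treated mouse, and 2 without the second or the third ATG-treated mouse or with median-ratio scaling. Those higher act as inhibitors or as immediate targets. Smad6, an inhibitory SMAD, was at 11.82, 11.98 and 12.23 with vehicle and at 13.03, 12.98 and 12.55 with ATG (0.84 ± 0.20 SE, adjusted p = 0.804 by limma). Smad7, the other inhibitory SMAD, was at 10.64, 11.09 and 10.66 against 10.93, 11.52 and 11.51, and overlapped. Id1 and Id2, inhibitors of differentiation that BMP signalling induces, were higher by 0.36 and 0.42, and the last of the 5 was Skil. Those lower included Smad3, the receptor-activated SMAD, by 0.24, and Tgfb2, a ligand, by 0.51.

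Immediate early genes, which respond within minutes to stimuli that include tissue handling, were above 0 in 27 of 34 with a median of 0.32. Only 2 were higher at an unadjusted p under 0.05, Klf10 and Klf4 (0.59), or 5.88% against 1.7% of all genes, and 5 in a fit on the 6 diabetic mice alone. Myc was lower by 0.69 and was the one lower member (2.94%, against 2.81%). Single members varied widely between mice. Fosb was at 10.38, 10.59 and 8.79 with vehicle and at 11.84, 10.71 and 10.55 with ATG (1.11 ± 0.76 SE), and Nr4a1 at 12.64, 13.12 and 13.79 against 15.07, 14.69 and 12.46 (0.89 ± 0.95). The median of the list was 0.07 without the third vehicle-treated mouse, 0.20 without the first ATG-treated mouse and 0.02 with the proximal tubule mean as a covariate.

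Genes of insulin and AMPK signalling gave 2 higher members of 45 (4.44%, against 1.7% of all genes), Insr, the insulin receptor (0.35 ± 0.088 SE), and Igfbp1, an insulin-repressed binding protein (0.84 on 27 to 70 reads), and 1 lower, Arrdc4 (2.22%, against 2.81%). The number higher was 4 without the third vehicle-treated mouse and with median-ratio scaling. Of 45 collagens and matrix remodelling genes, 1 was lower, Adamts9, a metalloproteinase (-0.62), and 1 was higher (2.22% each, against 2.81% and 1.7% of all genes). The 21 circadian clock genes had none with an unadjusted p under 0.05, although their mean was apart between the groups, at 10.19, 10.13 and 10.21 against 10.36, 10.35 and 10.29. In a fit on the 6 diabetic mice alone, 4 of the 21 were higher at that threshold, as were 252 of all 14096 genes. The 86 ribosomal protein genes (median -0.05) and the 79 genes of oxidative phosphorylation (median 0.05) had none in the fit on all mice. Without the third vehicle-treated mouse, 14 ribosomal protein genes were lower with a median of -0.12, where 648 of all genes were lower, and the oxidative phosphorylation median was -0.14 with 78 of 79 below 0. Without the second, that median was 0.22 with 8 higher, where 457 of all genes were higher. Interferon-stimulated genes (0 of 45) and complement (0 of 20) likewise had no member under that threshold in the fit on all mice, but complement had 5 lower without the first ATG-treated mouse (311 of all genes) and 3 without the third vehicle-treated mouse (648 of all genes). Erythrocyte genes, with a median of -0.91 over 8, had overlapping groups. Their median was -0.49 without the third ATG-treated, -0.50 without the first vehicle-treated and -0.54 without the third vehicle-treated mouse, and -1.56 with 6 of 8 lower without the second vehicle-treated mouse. With at least 100 reads in every mouse only 2 of the 8 remained, with a median of 0.07.

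The spread between mice differed between the groups. The median SD across genes was 0.14 with vehicle and 0.099 with ATG, and the SD was larger with vehicle in 9451 genes (67.0%). The third vehicle-treated mouse was the one farthest from the other 2 of its group in 49.6% of genes and lay more than 1 log2 unit from their mean in 572 genes, against 252 for the second and 51 for the first. In the ATG group each mouse was farthest in 28.3% to 37.2% of genes. The same mouse also had the lowest tubule means and the highest Nphs1. Sampling of reads gave a median SD of only 0.050, and the observed spread exceeded it in 13105 genes.

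The precision was limited more by this spread than by depth. The median SE of a log2 difference was 0.12, from 0.062 at the 5th to 0.31 at the 95th percentile of genes, and the half-width of the 95% interval had a median of 0.27, which is 1.20-fold. With the genes in 4 equal bins by reads, the median SE was 0.18 in the lowest bin, of 15.3 to 284 reads on average, and 0.12, 0.091 and 0.094 in the bins above, so it no longer shrank beyond the 3rd bin. In 13468 genes (95.5%) the interval lay within 1 log2 unit of 0, so a 2-fold difference lay outside it, and in 9946 genes (70.6%) it lay within 0.5. In the other 4150 genes the interval reached beyond 0.5 log2 units in at least one direction.

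The adjusted threshold asked for far more than that. To be the only gene called, a gene needed a p of 3.55e-06, which for the median gene corresponds to a log2 difference of 1.04, or 2.06-fold, and in the 5% of genes with the largest SE to at least 2.66, or 6.30-fold. In 6666 genes (47.3%) a difference of 1 log2 unit would have sufficed. If 100 genes had passed together, the median gene would have needed 0.62, and if 500 had, 0.50. The measured differences exceeded 0.5 in 1.90% of genes, so most measured differences were smaller than these values.

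**Figure D5:**
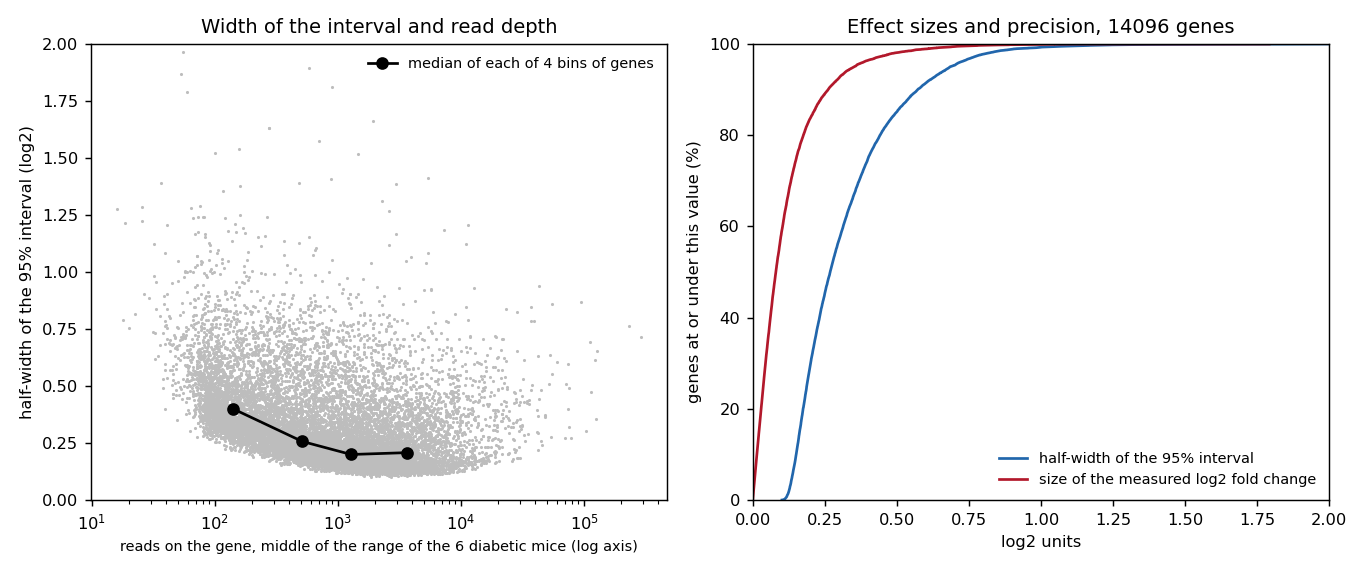
Half-width of the 95% interval of the ATG difference in diabetic mice against the reads on the gene (left, log x axis, black points are medians of 4 bins of genes), and the share of 14096 genes at or under a given value (right) for the half-width (blue) and for the size of the measured log2 fold change (red). The red curve lies to the left of the blue one, with medians of 0.080 and 0.27 log2 units.

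The ATG effect was also set against that in nondiabetic mice, which share no animal with it. There, limma called 736 genes (5.22%), 636 lower (4.51%) and 100 higher (0.709%). Across the 14096 genes the ATG log2 fold changes of both settings had a Pearson r of 0.30 and a Spearman correlation of 0.25, and 58.5% had the same sign. Genes are not independent replicates, and the 4 groups were scaled together. The leukocyte list was below 0 in both, with medians of -0.48 in diabetic and -0.42 in nondiabetic mice. In nondiabetic mice the medians of slit diaphragm (-0.49), endothelial (-0.66) and mesangial genes (-0.85) were lower still. Of the 12 genes lower with ATG in diabetic mice, 11 were below 0 in nondiabetic mice and none was called there. Nfkb2 differed by -0.41 in diabetic and -0.20 in nondiabetic mice, Itgb2 by -0.65 and -0.49, and Spon2 by -1.08 and -0.83.

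The genes higher with ATG behaved otherwise. All 12 were below 0 in nondiabetic mice, where 4 fell, Ackr2, Coro2a, Pla2g4a and Rapgef2. Coro2a was higher by 0.70 in diabetic mice and fell by 0.75 in nondiabetic mice (adjusted p = 0.00825 by limma), and Pla2g4a was higher by 0.35 and fell by 0.50 (adjusted p = 0.00548). The difference between the effects in diabetic and nondiabetic mice passed the adjusted threshold in 77 genes (0.546%), 76 of them (0.539%) with the higher value in diabetic mice and 1 (0.00709%) with the lower. In nondiabetic mice given ATG the glomerular lists were low as a whole, with medians of -0.66 for endothelial, -0.85 for mesangial and -0.49 for slit diaphragm genes, and the proximal tubule list was high at 0.80. The part of this in the 77 genes was not tested, except that with the proximal tubule mean as a covariate 27 were called. Leaving out 1 diabetic mouse moved the count to between 6 and 124, the most without the third vehicle-treated mouse.

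The effect of diabetes in vehicle-treated mice is given beside that of ATG for the genes described above, and both comparisons use the same 3 vehicle-treated diabetic mice, so a chance deviation of these mice moves them in opposite directions. Nfkb2 rose with diabetes by 0.55 (adjusted p = 0.00375 by limma) and was lower with ATG by 0.41. Itgb2 rose by 0.82 and was lower by 0.65, Abra rose by 1.52 and was lower by 1.09, and Akap12 rose by 1.20 and was lower by 0.70. Skil fell by 0.39 with diabetes and was higher with ATG by 0.82, whereas Ackr2 (-0.20, adjusted p = 0.260) and Pla2g4a (-0.04, adjusted p = 0.681) did not pass the test for diabetes. The leukocyte list had a median of 0.54 with diabetes and of -0.48 with ATG, and proximal tubule genes had medians of -1.48 and 0.38.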

How the data were processed

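Total RNA of glomeruli was poly-A selected and sequenced at BGI. The authors deposited log2 values per gene and mouse, which on the linear scale sum to 29.7 to 30.2 M per mouse. Of the values under 2000, 83.4% to 84.1% were whole multiples of 1 step per library within 0.02 reads, and reads were recovered with that step. Each listed gene reaches 100 on the linear scale in some library, so genes below that are not covered. The submitters' notes name limma and mm10 without a role. The aligner is not given in the sources used here.

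All 12 mice entered 1 fit of the 4 groups in limma 3.58.1 (R 4.3.3), with a trend in the prior variance, contrasts for each effect and Benjamini-Hochberg adjustment over 14096 genes. A count test planned for whole reads was replaced because too few values were whole. The test was checked on simulated data with independent normal noise of equal SD in all mice for a gene. An outlying mouse and unequal spread between groups were not simulated. Exact p values and tables used SciPy 1.17.1 and pandas 2.3.3 in Python 3.11.15, and figures matplotlib 3.10.9. A total of 14071 gene identifiers were found in the GRCm38 gene table.

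Named genes are the 12 of lowest p in each direction, up to 3 of lowest p in each of 40 lists, the 4 largest in each direction, the 4 of widest interval, genes that the study names and tissue markers. Other members of a list were named after their values had been seen, among them Smad7, Id1, Id2, Aif1, Spi1, Tyrobp, Sele, Ptgs2, Il1b, Rela and Cd74. The comparison, the lists and the rule were chosen with earlier results of these data known. Some members of the lists are not reported here. Whether the 3 mice of a group shared a litter or batch is not stated, so p values measure the spread between these mice.

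Alternatives were the 6 diabetic mice alone, the replicate number as a block, a prior without a trend, median-ratio scaling, at least 10 or 100 reads in every mouse, array weights, limma-voom, the proximal tubule mean as a covariate, and each diabetic mouse left out in turn. Array weights estimated gene by gene were added after seeing the data.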

Additional observations from a re-analysis of the deposited data

Results flagged for a closer look

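For 13 of the genes named, the ATG effect differed between diabetic and nondiabetic mice by the test of that difference in limma (adjusted p under 0.05 over all genes), and in each the log2 effect was the higher one in diabetic mice. These were Coro2a (difference of the effects 1.46), Frmd3 (1.36), Itga8 (1.34), Ackr2 (1.33), Mcf2l (1.22), Skil (1.19), Sox7 (1.09), Pdgfrb (1.03), Id1 (0.98), Sox18 (0.94), Rapgef2 (0.90), Pla2g4a (0.86) and Klf3 (0.84). The difference had the same sign in all 13 with the replicate block and with any 1 diabetic mouse left out, but the test called 5 of the 13 with the block, 5 without a trend in the prior variance, 6 with the proximal tubule mean as a covariate and 2 to 4 with a mouse left out, other than the third vehicle-treated mouse, without which it called 12. Over all genes it called 77, with the block 8, and with a diabetic mouse left out 6 to 124. Several of them were picked for a low p in diabetic mice, so their share among the genes called is a description. Pdgfrb and Itga8 fell by 1.01 and 1.09 with ATG in nondiabetic mice and differed by 0.02 and 0.25 in diabetic mice. Groups of 3 mice were not tested for an outlying mouse.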

How the results depend on the processing

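No gene was called for ATG in diabetic mice under any alternative but array weights, and the lowest adjusted p was 0.158 with limma-voom and 0.195 with median-ratio scaling. Weights fitted by restricted maximum likelihood, which gave single libraries weights from 0.209 to 29.8 and did not converge, called 1563 genes, with 2373 lower and 1756 higher at an unadjusted p under 0.05, a median SE of 0.075 and 6485 genes whose ATG effect differed between diabetic and nondiabetic mice. Gene by gene, a method added after seeing the data with weights from 0.316 to 3.62, they called 114, with 1514 lower, 1096 higher and 2612 differing. Both gave the first vehicle-treated mouse the most weight among diabetic mice and the third the least. The 77 genes whose effects differed became 8 with the replicate block, 19 without a trend, 27 with the tubule covariate and 6 to 124 when a mouse was left out. Leaving out a mouse gave 203 to 648 lower and 144 to 479 higher genes at an unadjusted p under 0.05, the fewest without the first and the most without the third vehicle-treated mouse, with 457 higher without the second and 156 without the second ATG-treated mouse. Groups that did not overlap then numbered 1203 to 2406 lower and 825 to 1678 higher, since fewer mice overlap less often. Across genes, the deviations of same-numbered diabetic mice from their group means correlated at 0.315, 0.0537 and 0.339. Those of the second vehicle-treated mouse correlated best with those of the first ATG-treated one (0.198), so the number was not taken as a pairing. The block left 387 lower and 314 higher, with a median SE of 0.111 in place of 0.122. The sign turned for Ppp2ca with weights (-0.013 and, gene by gene, -0.0057) and, when a mouse was left out, for Ppp2r1a (-0.0069 to 0.00998), Nphs1 (-0.30 to 0.056), Wt1 (-0.076 to 0.37), Pdgfrb (-0.075 to 0.12) and Dbn1 (-0.020 to 0.40), none of which was called. The cause of these changes was not tested. Of 1452 values of named genes under the 16 alternatives, 1338 kept sign and side of the threshold, and of 640 list medians 38 moved by more than the spread between mice.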
